A study of Mus musculus with 36 samples.

Results

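The Egr and Nr4a genes encode 2 families of transcription factors whose own messages are made within minutes to hours of a stimulus, and this account follows all 7 of them across the sleep and waking states of the mouse forebrain. Every probe set whose platform annotation names exactly 1 of the symbols Egr1, Egr2, Egr3, Egr4, Nr4a1, Nr4a2 or Nr4a3 was taken, which gave 7 of the 18193 genes named on the array and 16 of its 45037 probe sets. There was 1 probe set for Egr1, 2 for Egr2, 2 for Egr3, 1 for Egr4, 1 for Nr4a1, 6 for Nr4a2 and 3 for Nr4a3. All 16 passed the filter on low signals, which kept 28786 probe sets.

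Messenger RNA was measured on expression arrays in 18 C57BL/6 mice of the genotype Cnp – eGFP-L10a, 6 per vigilance state. The Cnp promoter, active in oligodendrocytes, drives a ribosomal protein (L10a) fused to a green fluorescent protein, so that tagged ribosomes and their messages can be pulled down with an antibody. The forebrain of each animal gave a bound array, of the precipitated RNA, and an unbound array, of the RNA left in the supernatant, which holds the neurons and the other glia as well as whatever oligodendrocyte RNA escaped the pull-down. Values are log2 signals. Sleep deprived mice had been awake for most of the dark phase and were then kept awake with new objects for 4 h of the light period. Waking mice were killed in the dark period between 3 and 5 am, having been awake for at least 70% of the 6 to 7 h before. Sleeping mice were killed in the light phase between 3 and 5 pm, having slept for at least 75% of the 6 to 7 h before. Waking therefore differs from sleep and from sleep deprivation in light phase as well as in state, and the 2 cannot be told apart. The labels state no age for the animals, and every animal carried the transgene.

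Egr proteins bind GC-rich sites through zinc fingers and are held in check by the co-repressors Nab1 and Nab2, which are themselves Egr targets. Egr1, Egr3 and Egr4 are known from neurons, where synaptic activity induces them within minutes. Egr2, also called Krox20, is known in addition as the regulator of myelination in Schwann cells, the myelinating cells of peripheral nerve. The Nr4a proteins are nuclear receptors without a known classical hormone; Nr4a1 (Nur77) and Nr4a2 (Nurr1) can pair with retinoid X receptors, and Nr4a2 is required for dopamine neurons. Calcium, cyclic AMP and MAP kinase signals reach these genes through the factors CREB and SRF bound near their starts.

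The promoters were examined for the sites of these 2 factors because the members moved in part together. RefSeq windows (GRCm38.p6, 250 bases before to 50 after a start) were given for 5 of the 7 genes, Egr2, Egr4, Nr4a1, Nr4a2 and Nr4a3, as 9 windows in all. The searched motifs were the CREB core site TGACG and the CArG box, the site of SRF, each on both strands, so that a core site on the other strand reads CGTCA. Capitals mark whole motif matches in the stretches below, which are the 250 bases before the start for Egr4, Nr4a1 and Nr4a2 and a 30-base stretch around the motifs for Egr2 and Nr4a3.
Egr2, chr10:67537789-67537818, plus strand: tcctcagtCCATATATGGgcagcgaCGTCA
Nr4a1, chr15:101266596-101266845, plus strand: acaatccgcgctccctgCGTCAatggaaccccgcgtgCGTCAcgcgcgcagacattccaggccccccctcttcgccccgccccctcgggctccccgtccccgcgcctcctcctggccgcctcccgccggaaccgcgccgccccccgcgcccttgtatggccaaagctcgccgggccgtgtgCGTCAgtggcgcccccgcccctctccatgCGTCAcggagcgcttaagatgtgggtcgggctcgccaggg
Nr4a2, chr2:57124004-57124253, minus strand: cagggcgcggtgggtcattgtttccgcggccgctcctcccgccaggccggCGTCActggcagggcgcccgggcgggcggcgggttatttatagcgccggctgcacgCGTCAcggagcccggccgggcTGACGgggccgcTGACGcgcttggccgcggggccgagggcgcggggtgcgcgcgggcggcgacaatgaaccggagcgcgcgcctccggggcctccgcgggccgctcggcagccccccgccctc
Nr4a3, chr4:48045067-48045096, plus strand: aggagggTGACGtagcgtcccatgtCGTCA
Egr4, chr6:85513590-85513839, minus strand: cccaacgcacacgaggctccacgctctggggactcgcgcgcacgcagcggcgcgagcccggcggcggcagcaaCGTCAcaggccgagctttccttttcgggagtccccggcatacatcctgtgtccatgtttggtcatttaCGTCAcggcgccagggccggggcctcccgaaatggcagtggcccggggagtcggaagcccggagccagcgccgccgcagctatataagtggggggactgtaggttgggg
The windows of Nr4a1, Nr4a2 and Nr4a3 each held 4 core sites, a number that 0.231% of all 32851 RefSeq windows reached. Egr4 held 2, as did 3 of the 5 Egr2 windows, which overlap one another, and 5.01% of all windows held at least that many. A CArG box lay in 4 of the 5 Egr2 windows, but the 3 overlapping ones hold the same box. No window of Egr4, Nr4a1, Nr4a2 or Nr4a3 had one, and 1.63% of all windows did. Egr1 and Egr3 had no window and were not examined. The CArG box and the core site of Egr2 did not overlap. A match is a description of the letters and not of a bound site.

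Mean signals over all probe sets were 5.91, 5.92 and 5.91 log2 in bound arrays of sleep deprivation, waking and sleep, and 6.41, 6.33 and 6.40 log2 in unbound arrays, with a standard deviation within a group of at most 0.01. Every unbound waking array (up to 6.33) was thus below every other unbound array (from 6.39). All 11 oligodendrocyte markers measured were higher in bound than in unbound arrays, and all 14 neuron markers were lower, so the fractions held what their labels say. Neuron markers were still present in bound arrays: their summed signal averaged 15.29 log2 in sleep deprivation, 15.30 in waking and 15.26 in sleep, with ranges of 15.09 to 15.51, 15.17 to 15.45 and 14.998 to 15.49. These ranges overlapped throughout. In 3 animals, sleep deprived replicate 11 and waking replicates 3 and 5, the mean of 3 Y-linked genes was 3.03 to 3.42 log2, against 7.66 to 8.32 in the other animals. Member calls that change without these 3 animals are given with the value.

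In the bound, oligodendrocyte-enriched RNA, Egr1, Egr2, Egr3, Nr4a1 and, with its dimmest probe set, Nr4a3 were higher in both awake states than in sleep. After sleep deprivation, 6 of the 16 probe sets were higher than in sleep and 0 lower, in limma with Benjamini-Hochberg adjustment over all tested probe sets, which called 8.05% of them higher and 6.67% lower. After spontaneous waking, the count was again 6 higher and 0 lower, against 5.08% of all tested probe sets called higher and 4.83% lower. In the unbound RNA, 9 of the 16 were higher after sleep deprivation than in sleep, from 6 of the 7 genes, and 0 were lower, where 4.72% of all tested probe sets were called higher and 3.14% lower. After spontaneous waking the unbound count was 4 higher, from Egr1, Egr2 and Nr4a1, and 0 lower, against 1.79% and 6.16% of all. That split of 515 higher and 1772 lower became 813 and 817 after quantile normalization within the fraction, with the 4 member calls kept. Beside the bound counts, 0 of the 14 neuron markers were higher in bound sleep deprivation or waking than in bound sleep, and 1 was lower after sleep deprivation, Slc17a7 with a difference of -1.0001 ± 0.33 log2 (limma adjusted p = 0.0452, and 0.055 after quantile normalization within the fraction). Of 3 endothelium markers tested, Flt1 was higher in bound waking than in bound sleep, by 0.47 ± 0.15 log2 (limma adjusted p = 0.0469), and P2ry12, 1 of 8 microglia markers, was lower in bound sleep deprivation by a difference of -1.06 ± 0.30 (limma adjusted p = 0.0232). Of 11 oligodendrocyte markers, 3 were higher and 1 lower in bound sleep deprivation, and 1 was higher and 3 lower in bound waking, than in bound sleep. After quantile normalization within the fraction, 1 was higher and 3 lower in bound sleep deprivation, and 1 higher and 2 lower in bound waking. The direction of these marker counts in sleep deprivation thus depends on the scaling. Of 8 astrocyte and 4 oligodendrocyte precursor markers, limma called 0 in these bound comparisons, and 2 reached an unadjusted p under 0.05 in sleep deprivation (Slc1a3 and Aldoc) and 2 in waking (Aldoc and Pdgfra). The part of these cell types in the bound results was not tested. The waking and sleep deprivation comparisons of a fraction share their 6 sleep arrays.

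The median change over the 16 probe sets was 0.47 log2 for sleep deprivation and 0.43 log2 for waking in the bound arrays, where the medians of all tested probe sets were 0.00 and -0.01. In the unbound arrays these medians were 0.53 log2 for sleep deprivation and 0.14 for waking, where all tested probe sets had 0.02 and -0.09. The 6 animals of a state lay wholly above the 6 sleeping animals for 6 probe sets in bound sleep deprivation and 5 in bound waking, where 4.25% and 3.22% of all tested probe sets were so arranged. In unbound arrays the counts were 8 and 3, where the shares were 3.15% and 1.09%. In bulk RNA, more cells that express a gene and more message per cell cannot be told apart.

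**Figure D1:**
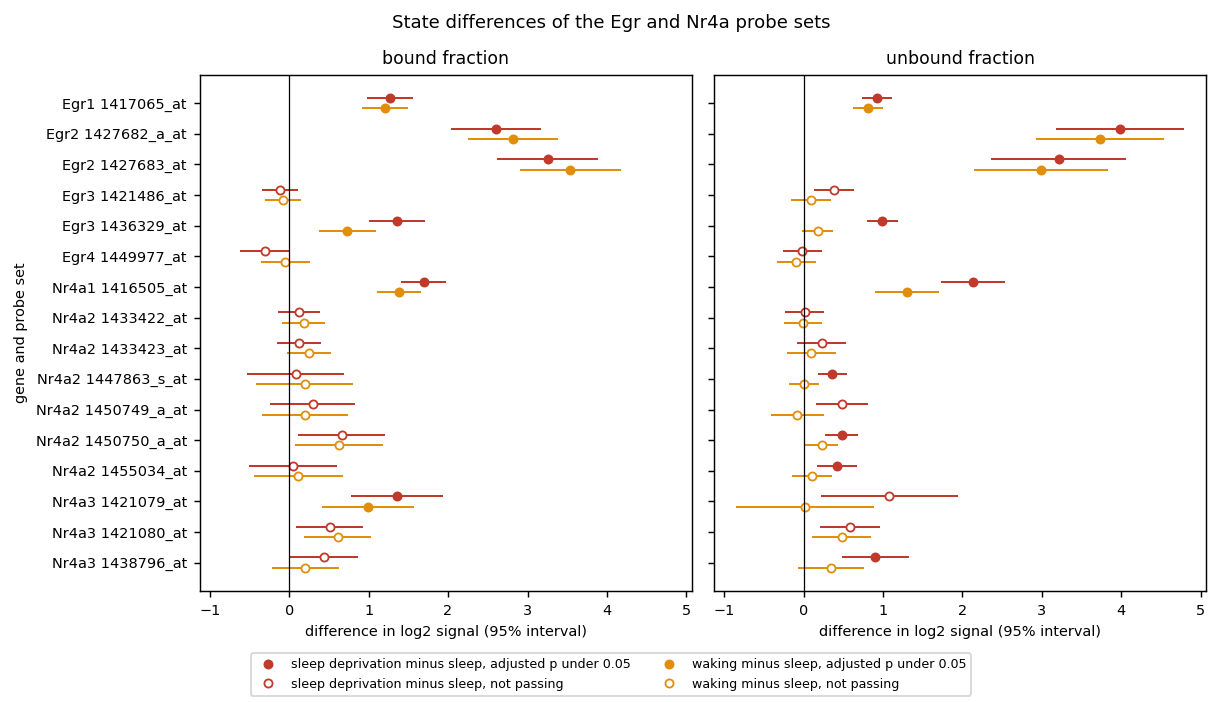
Difference in log2 signal (horizontal axis, with 95% interval) of each Egr and Nr4a probe set, for sleep deprivation minus sleep (red) and waking minus sleep (orange), in bound (left) and unbound (right) arrays; filled points passed an adjusted p of 0.05 in limma. Egr2 lies farthest to the right in both fractions, Egr4 and 2 Nr4a2 probe sets lie near 0, and Egr3 1436329_at has separate red and orange intervals in the unbound arrays.

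Egr1, the best studied neuronal activity marker of the family, was at its highest in unbound RNA and responded in both fractions. In bound arrays its signal was 10.39, 10.85 and 10.98 log2 after sleep deprivation (lowest, median and highest of 6 animals), 10.32, 10.79 and 10.98 in waking, and 9.17, 9.45 and 9.92 in sleep. Every sleep deprived and every waking animal lay above every sleeping animal, and the 2 waking states overlapped. The difference from sleep was 1.27 ± 0.14 log2 for sleep deprivation (SE, n = 6 per group, limma adjusted p = 6.17e-06) and 1.20 ± 0.14 for waking (limma adjusted p = 3.29e-05), or 2.41-fold and 2.30-fold.

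In unbound arrays Egr1 was at 12.37, 12.71 and 12.86 log2 after sleep deprivation, 12.38, 12.50 and 12.80 in waking, and 11.46, 11.73 and 11.95 in sleep. Again the waking states overlapped each other and lay clear of sleep. The differences were 0.92 ± 0.09 log2 for sleep deprivation (limma adjusted p = 3.92e-06) and 0.81 ± 0.09 for waking (limma adjusted p = 4.58e-05). Sleep deprivation and waking differed by 0.07 log2 in bound arrays (95% interval -0.22 to 0.35) and by 0.11 in unbound arrays (-0.07 to 0.30), and neither passed the test.

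Egr2 had the widest swing of the 7 genes, and both of its probe sets showed it. With 1427683_at, bound signals were 5.63, 7.21 and 7.83 log2 after sleep deprivation, 6.98, 7.29 and 7.81 in waking, and 3.04, 3.85 and 4.47 in sleep. The lowest awake animal was thus still above the highest sleeper. The difference from sleep was 3.25 ± 0.30 log2 for sleep deprivation (9.54-fold, limma adjusted p = 1.16e-06) and 3.54 ± 0.30 for waking (11.6-fold, limma adjusted p = 7.21e-06). The second probe set, 1427682_a_at, gave 2.60 ± 0.27 and 2.82 ± 0.27.

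The Egr2 level in bound arrays was low in sleep. Its sleep means there, 3.74 and 3.80 log2 for the 2 probe sets, were below the bound filter level of 4.47 log2. In bound arrays, 20 genes not expected in brain had a median of 5.07 log2 and a 90th percentile of 8.20 log2. The awake Egr2 means of 6.35 to 7.34 log2 lay above that median and below that percentile. With every value below the filter level raised to it, the Egr2 differences in bound arrays were 1.88 and 2.59 log2 for sleep deprivation and 2.09 and 2.87 for waking, and all 4 passed the limma test. The presence of Egr2 message in the bound RNA of sleeping mice was therefore not shown. In awake mice its presence rests on the difference from sleep rather than on the level. Of the 20 genes not expected in brain, 12 were tested. In bound sleep deprivation 3 of them were called higher than in sleep and 0 lower, against 8.05% and 6.67% of all tested probe sets. In bound waking 3 were higher and 1 lower, against 5.08% and 4.83%. A called difference from sleep thus also occurred among genes not expected in brain.

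Unbound Egr2 differed as widely. With 1427683_at it was at 8.91, 9.33 and 9.76 log2 after sleep deprivation, 7.43, 9.47 and 9.96 in waking, and 5.08, 5.99 and 7.68 in sleep. Waking replicate 3, 1 of the 3 animals with low Y-linked signal, fell within the sleep range, and all other awake animals were above it. The differences were 3.21 ± 0.40 log2 for sleep deprivation (9.26-fold, limma adjusted p = 8.04e-05) and 2.99 ± 0.40 for waking (limma adjusted p = 0.000256). With 1427682_a_at they were 3.98 ± 0.39 and 3.73 ± 0.39, and the ranges did not overlap. The sleep mean of 1427682_a_at, 4.91 log2, was below the unbound filter level of 5.18, and with dim values raised to that level the Egr2 differences were 3.51 and 3.26 log2. Sleep deprivation and waking did not differ detectably in either fraction, with 95% intervals of -0.92 to 0.35 log2 in bound and -0.63 to 1.06 in unbound arrays for 1427683_at.

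Egr3, induced in neurons alongside Egr1, had bound means in a graded order with 1436329_at, while the other probe set was called in no state comparison as deposited. Bound signals of 1436329_at were 8.79, 9.21 and 9.47 log2 after sleep deprivation, 8.32, 8.51 and 8.79 in waking, and 7.33, 7.75 and 8.50 in sleep. Sleep deprivation lay above sleep without overlap, and waking overlapped both. The difference from sleep was 1.36 ± 0.17 log2 for sleep deprivation (limma adjusted p = 3.05e-05) and 0.73 ± 0.17 for waking (limma adjusted p = 0.00972). Sleep deprivation exceeded waking by 0.63 ± 0.17 log2 (limma adjusted p = 0.0342). Egr3 was the only member called in that bound comparison, where 3.14% of all tested probe sets were called higher and 2.75% lower. Without the 3 animals with low Y-linked signal the Egr3 difference was 0.56 log2 (limma adjusted p = 0.186), and leaving out single animals gave adjusted p-values of 0.0125 to 0.0782.

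In unbound arrays Egr3 1436329_at separated sleep deprivation from both other states. It was at 11.18, 11.28 and 11.57 log2 after sleep deprivation, 10.26, 10.59 and 10.68 in waking, and 10.14, 10.33 and 10.59 in sleep. All 6 sleep deprived animals were above all others, while waking and sleeping animals were mixed. Sleep deprivation exceeded sleep by 0.99 ± 0.09 log2 (limma adjusted p = 2.75e-06) and waking by 0.81 ± 0.09 (limma adjusted p = 7.12e-05), and waking exceeded sleep by 0.17 (95% interval -0.02 to 0.37, limma adjusted p = 0.26). The other Egr3 probe set, 1421486_at, averaged 6.66, 6.70 and 6.78 log2 in bound sleep deprivation, waking and sleep, and 7.79, 7.51 and 7.41 in the same unbound groups. The unbound means thus had the same order, with 0.38 ± 0.12 log2 for sleep deprivation against sleep (limma adjusted p = 0.0592). That difference was called for Egr3 with no filter (limma adjusted p = 0.032), with dim values raised to the filter level (0.0398) and with no intensity trend (0.0236). In both fractions the means of 1421486_at lie between the median and the 90th percentile of the 20 genes not expected in brain. By its level, a signal above background was thus not shown for this probe set.

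Egr4, the remaining member of its family, showed no called difference between states. In bound arrays 1449977_at was at 6.45, 6.66 and 6.80 log2 after sleep deprivation, 6.57, 6.91 and 7.22 in waking, and 6.71, 6.85 and 7.33 in sleep. The groups overlapped, with sleep deprivation at the low end and its difference from sleep at -0.31 log2 (95% interval -0.62 to -0.0029, limma adjusted p = 0.172). In unbound arrays the 3 group means lay between 6.97 and 7.06 log2. The 95% intervals there ran from -0.26 to 0.23 log2 for sleep deprivation and from -0.34 to 0.15 for waking against sleep. These levels lie between the median (5.48 log2) and the 90th percentile (8.66 log2) of the 20 genes not expected in brain, so a signal above background was not shown for Egr4 and the intervals set no limit on its message.

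**Figure D2:**
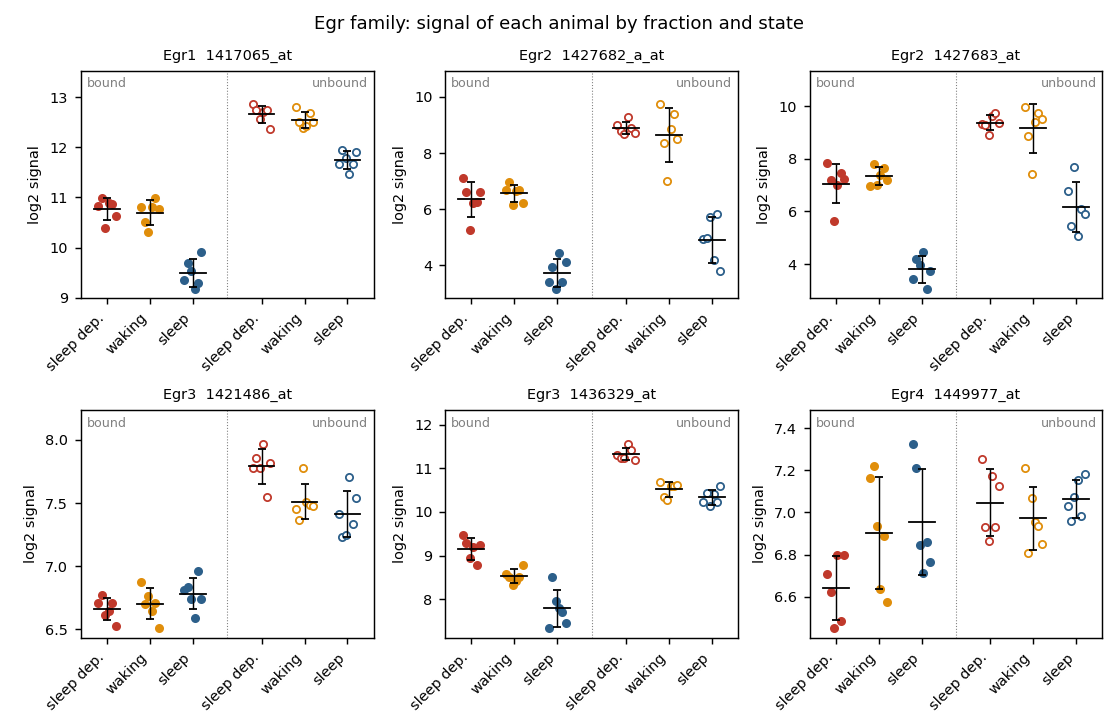
Log2 signal (vertical axis) of each animal for the 6 Egr probe sets, in sleep deprivation, waking and sleep from left to right, with bound arrays as filled and unbound arrays as open points; bars are means with the standard deviation over 6 animals. Egr1 and Egr2 show the 2 awake states together and above sleep, Egr3 1436329_at shows sleep deprivation above waking, and Egr3 1421486_at and Egr4 have no called state difference.

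Nr4a1, the receptor Nur77, rose with both awake states in both fractions. Bound signals of 1416505_at were 9.58, 9.76 and 10.12 log2 after sleep deprivation, 9.31, 9.43 and 9.66 in waking, and 7.63, 8.18 and 8.47 in sleep. The lowest awake animal was 9.31, well above the highest sleeper at 8.47. Differences from sleep were 1.69 ± 0.13 log2 for sleep deprivation (3.23-fold, limma adjusted p = 2.61e-07) and 1.38 ± 0.13 for waking (2.60-fold, limma adjusted p = 8.63e-06).

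Unbound Nr4a1 separated all 3 states in its means. It was at 9.08, 9.60 and 9.82 log2 after sleep deprivation, 8.14, 8.78 and 9.23 in waking, and 6.87, 7.43 and 7.91 in sleep. Both awake groups were clear of sleep and overlapped each other slightly. Sleep deprivation exceeded sleep by 2.13 ± 0.19 log2 (4.39-fold, limma adjusted p = 1.53e-06) and waking by 0.83 ± 0.19 (limma adjusted p = 0.00969), and waking exceeded sleep by 1.301 ± 0.19 (limma adjusted p = 0.000533). In bound arrays the step between the awake states was 0.31 log2 (95% interval 0.03 to 0.59) and did not pass the test (limma adjusted p = 0.19).

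Nr4a2, the receptor Nurr1, was not called in bound arrays and rose in unbound arrays after sleep deprivation with 3 of its 6 probe sets. Of the bound differences, 1450750_a_at had the largest, 0.66 ± 0.26 log2 for sleep deprivation (limma adjusted p = 0.102) and 0.63 ± 0.26 for waking (limma adjusted p = 0.144). When single animals were left out, 1450750_a_at was called for sleep deprivation only without sleep deprived replicate 10 (limma adjusted p = 0.042). Bound sleep deprived animals varied widely for 1447863_s_at, from 8.20 to 10.40 log2 with a standard deviation of 0.86, against 0.31 in waking and 0.30 in sleep.

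In unbound arrays 1450750_a_at was at 10.35, 10.48 and 10.97 log2 after sleep deprivation, 10.09, 10.32 and 10.54 in waking, and 9.93, 10.10 and 10.17 in sleep. Sleep deprived animals lay above every sleeper, and waking animals overlapped both. The difference was 0.48 ± 0.10 log2 (limma adjusted p = 0.00573). The other called probe sets were 1455034_at with 0.42 ± 0.12 (limma adjusted p = 0.0345) and 1447863_s_at with 0.36 ± 0.09 (limma adjusted p = 0.0166), while 1450749_a_at had 0.48 ± 0.16 (limma adjusted p = 0.0688) and was called without the 3 animals with low Y-linked signal, at 0.49 (limma adjusted p = 0.0445). The call of 1455034_at was lost when any 1 of 8 animals was left out, among them sleep deprived replicate 10, with adjusted p-values over all such fits of 0.0173 to 0.0823. None of the 6 was called in unbound waking against sleep, where the differences ran from -0.08 to 0.23 log2.

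The remaining Nr4a2 probe sets, 1433422_at and 1433423_at, had group means of 6.31 to 6.83 log2 in both fractions and no called state difference. These means lie between the median and the 90th percentile of the 20 genes not expected in brain. So do the bound means of 1450749_a_at and 1455034_at, at 7.56 to 8.01 log2. By level, a signal above background was thus not shown there, and the missing calls set no limit on the message. The 6 probe sets of Nr4a2 cover 1 gene and are not replicates of one another.

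Nr4a3, the receptor NOR-1, gave different calls with its 3 probe sets. In bound arrays 1421079_at was at 3.84, 4.97 and 5.30 log2 after sleep deprivation, 3.91, 4.26 and 5.69 in waking, and 3.17, 3.50 and 3.80 in sleep. Awake animals lay above sleepers, narrowly at the low end. The differences were 1.36 ± 0.28 log2 (limma adjusted p = 0.00268) and 0.99 ± 0.28 (limma adjusted p = 0.0283), but the sleep level was below the filter level of 4.47. With dim values raised to that level they were 0.48 log2 (limma adjusted p = 0.0962) and 0.25 (limma adjusted p = 0.448), and neither was called. The waking call of Nr4a3 1421079_at was also lost without sleep replicate 1 or 3 or waking replicate 2 or 4, with adjusted p-values over all such fits of 0.0142 to 0.0609.

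The brighter bound Nr4a3 probe sets had 0.51 ± 0.20 log2 for 1421080_at and 0.44 ± 0.20 for 1438796_at after sleep deprivation, neither passing. Their bound group means, 7.18 to 7.79 log2, lie below the 90th percentile (8.20 log2) of the 20 genes not expected in brain. By level, a signal above background was thus not shown for them in bound arrays. In unbound arrays 1438796_at was at 9.38, 9.79 and 9.96 log2 after sleep deprivation, 8.49, 9.18 and 9.62 in waking, and 8.06, 8.92 and 9.26 in sleep. Sleep deprivation was clear of sleep and overlapped waking. The difference was 0.90 ± 0.20 log2 (limma adjusted p = 0.00881), with 0.35 ± 0.20 for waking against sleep (limma adjusted p = 0.305). Unbound 1421079_at had a larger but noisier difference of 1.08 ± 0.41 log2 after sleep deprivation, which was not called.

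**Figure D3:**
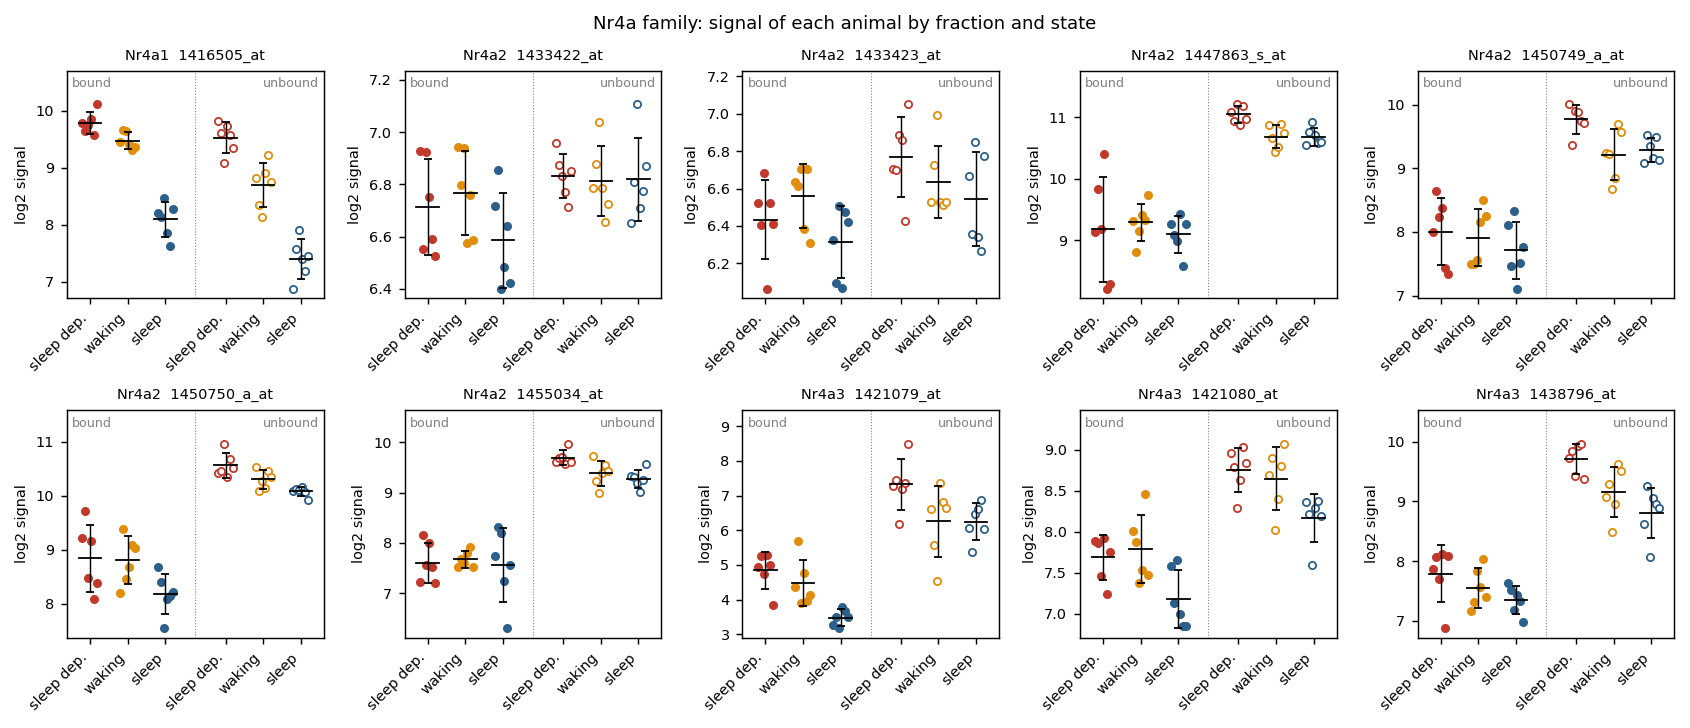
Log2 signal (vertical axis) of each animal for the 10 Nr4a probe sets, in sleep deprivation, waking and sleep from left to right, with bound arrays as filled and unbound arrays as open points; bars are means with the standard deviation over 6 animals. Nr4a1 shows clear steps between awake states and sleep in both fractions, and is the one panel in which the bound mean is above the unbound mean in every state.

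Between the awake states, 4 of the 16 probe sets were higher after sleep deprivation than in waking in unbound arrays and 0 were lower, where 8.83% of all tested probe sets were called higher, 1.72% were called lower and their median was 0.11 log2. Beside Egr3 1436329_at and Nr4a1, these were Nr4a2 1447863_s_at with 0.36 ± 0.09 log2 (limma adjusted p = 0.0155) and 1450749_a_at with 0.56 ± 0.16 (limma adjusted p = 0.0297). Quantile normalization within the fraction took the median of all tested probe sets to 0.00, the split of all calls to 679 higher and 710 lower from 2542 and 494 as deposited, and both Nr4a2 calls away, at 0.23 log2 (limma adjusted p = 0.143) and 0.43 log2 (limma adjusted p = 0.119). The Egr3 and Nr4a1 calls remained, at 0.69 and 0.71 log2. The 2 groups did not overlap for 1 of the 16 probe sets, Egr3 1436329_at, against 4.76% of all tested probe sets.

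Bound against unbound RNA of the same animals, averaged over the states, placed most members on the unbound side and Nr4a1 on the bound side. As deposited, 14 of the 16 probe sets were lower in bound arrays and 1 was higher, where 59.4% and 23.8% of all tested probe sets were called lower and higher in limma and the median of all was -0.40 log2. Egr1 differed by -1.996 ± 0.04 log2 (limma adjusted p = 1.47e-19), and Egr2 differed by -1.93 ± 0.20 and -2.16 ± 0.20. Egr3 differed by -2.24 ± 0.08 with 1436329_at and by -0.86 ± 0.07 with 1421486_at. These lay well below the overall median, as did 4 Nr4a2 probe sets at -1.84 to -1.55 log2 and the 3 Nr4a3 probe sets at -2.34, -0.97 and -1.67.

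Nr4a1 went the other way, with bound exceeding unbound by 0.58 ± 0.10 log2 (limma adjusted p = 1.60e-05), and by 0.97 relative to the median of all tested probe sets. After quantile normalization over all 36 arrays, which brought that median to 0.05 and the calls to 12399 higher and 11226 lower against 6857 and 17111 as deposited, the Nr4a1 difference was 0.87 log2 (0.82 relative to the median). The sign of 3 low-signal probe sets changed with that scaling. Egr4 was at -0.19 log2 as deposited and 0.34 after it, Nr4a2 1433422_at at -0.13 and 0.44, and Nr4a2 1433423_at at -0.21 and 0.39. Without the 3 animals with low Y-linked signal Egr4 was at -0.20 log2 and no longer called (limma adjusted p = 0.0536). The sign for Egr4 and for these 2 Nr4a2 probe sets thus depends on the scaling. Relative to the median of all tested probe sets they were above 0 under both scalings, at 0.18 to 0.26 as deposited and 0.29 to 0.38 after quantile normalization. By state, Nr4a1 averaged 9.79 log2 in bound and 9.53 in unbound arrays after sleep deprivation, 9.48 and 8.70 in waking, and 8.10 and 7.40 in sleep.

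**Figure D4:**
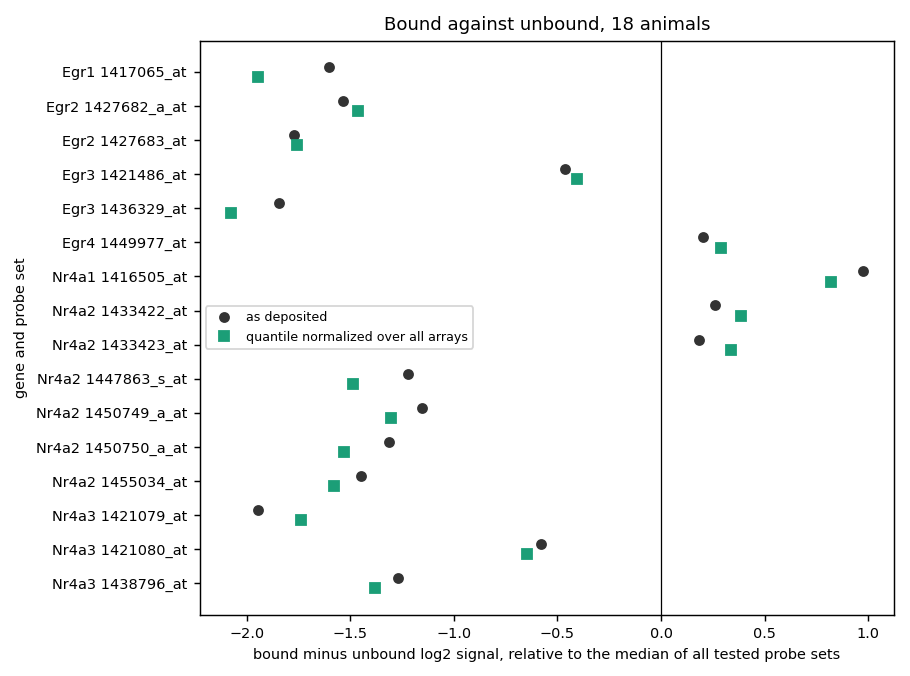
Bound minus unbound log2 signal (horizontal axis), averaged over 18 animals and given relative to the median of all tested probe sets, for each member as deposited (circles) and after quantile normalization over all 36 arrays (squares). Nr4a1 stands at 0.97 and 0.82, Egr4 and 2 Nr4a2 probe sets at 0.18 to 0.38, and all others below 0 under both scalings.

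The difference in response between the fractions was tested on the per-animal difference of both arrays. There 1 of 16 probe sets passed for sleep deprivation against sleep and 1 for waking against sleep, both higher in bound, where 3.23% and 4.38% of all tested probe sets were called higher and 3.14% and 1.72% lower. Both were Egr1. Its awake rise was larger in bound than in unbound arrays by 0.35 ± 0.10 log2 for sleep deprivation (limma adjusted p = 0.0409) and by 0.40 ± 0.10 for waking (limma adjusted p = 0.0224). Neither call survived quantile normalization over all arrays, at 0.32 log2 (adjusted p = 0.0538) and 0.30 (adjusted p = 0.0787), or the removal of the 3 animals with low Y-linked signal, at 0.32 (adjusted p = 0.0843) and 0.41 (adjusted p = 0.053). Leaving out single animals removed the Egr1 call for sleep deprivation in 9 of 18 fits.

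No other member passed. For Egr2 1427683_at the fractions differed in response by 0.04 log2 for sleep deprivation (95% interval -1.001 to 1.09), and for Nr4a1 by -0.44 (-0.94 to 0.06). For sleep deprivation against waking, limma called 0 of the 16 fraction differences, 1 reached an unadjusted p under 0.05, and 5.05% of all tested probe sets were called in either direction. Egr2 1427682_a_at had a smaller bound than unbound rise after sleep deprivation, by -1.38 ± 0.49 log2 (limma adjusted p = 0.102). With dim values raised to the filter level this was -1.63 (limma adjusted p = 0.00797). That setting raises every bound sleep value of 1427682_a_at (mean 3.74, highest 4.44 log2) to 4.47 log2. It thereby removes their spread and shortens the bound rise more than the unbound one. The called value thus partly reflects the floor and is not a stronger result.

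Animals with more Egr1 than their state's mean in one fraction tended to have more in the other. Over 18 animals the deviations from the state means in bound and unbound arrays had a Pearson r of 0.745 and a Spearman rho of 0.746 (permutation within states, 100000 draws, two-sided, p = 0.00148 and p = 0.00155). The relation was 0.744 without the 2 animals farthest from the median in bound arrays, and 0.6253, 0.630 and 0.928 within sleep deprivation, waking and sleep. It was 1 of 16 relations computed, 1 per member probe set, and the other 15 had r between -0.50 and 0.25. Over all tested probe sets the median r was 0.06, and 0.299% reached that of Egr1. The 2 arrays of an animal share its tissue and dissection.

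**Figure D5:**
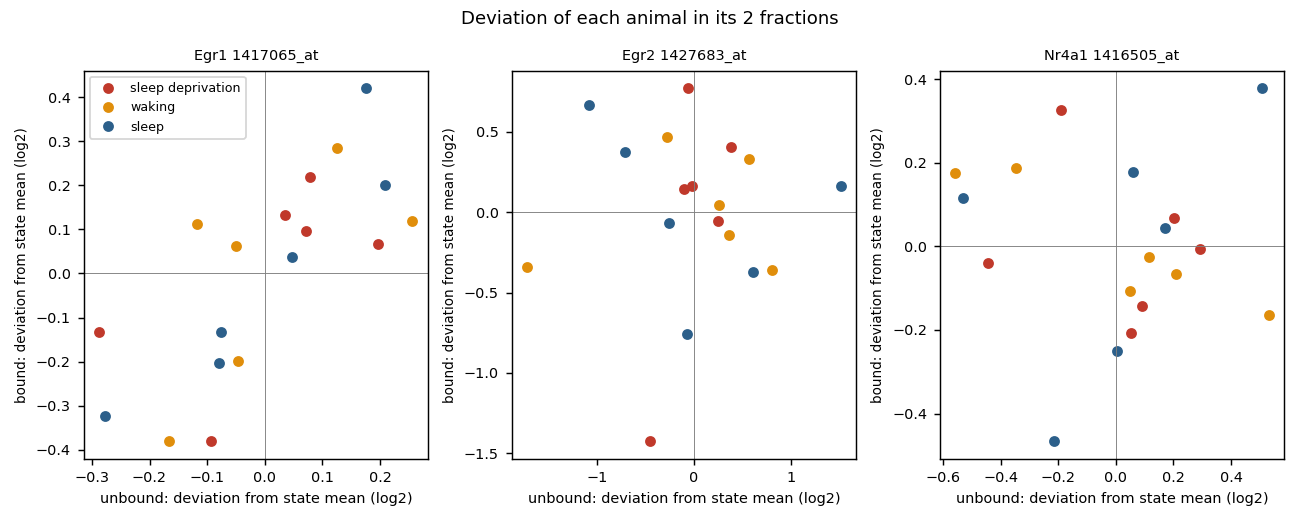
Deviation of each animal from the mean of its state, in unbound (horizontal axis) and bound (vertical axis) arrays, in log2 signal, for Egr1, Egr2 1427683_at and Nr4a1; colours mark the states. The Egr1 points run along the diagonal in all 3 states, with r = 0.745 over 18 animals, and the Egr2 and Nr4a1 points do not, with r = 0.02 and -0.07.

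Within a state, the 2 Egr2 probe sets varied together over animals, with r = 0.81 over the 18 bound and 0.78 over the 18 unbound deviations from state means. For the 2 Egr3 probe sets these values were -0.05 and 0.09, and the 15 pairs of Nr4a2 probe sets had a median r of 0.10 in bound and -0.03 in unbound arrays. Among Nr4a2 1447863_s_at, 1450749_a_at, 1450750_a_at and 1455034_at, r ran from 0.22 to 0.61 in bound and from 0.29 to 0.66 in unbound arrays. For pairs with the dimmer 1433422_at or 1433423_at it ran from -0.55 to 0.20 and from -0.43 to 0.62. Pairs of different Egr genes had a median r of 0.18 in bound and 0.15 in unbound arrays, and pairs of different Nr4a genes 0.10 and 0.08. These correlations are descriptions over arrays that share their processing.

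The genes that act with the members were described from lists, each gene by its brightest probe set. Of the 5 co-regulators, the Egr co-repressor Nab2 was higher in bound waking arrays than in bound sleep arrays by 0.97 ± 0.25 log2 (limma adjusted p = 0.02), and lower after sleep deprivation than in waking by 1.25 ± 0.25 (limma adjusted p = 0.00641, difference -1.25). That step differed between the fractions by -1.48 ± 0.28 log2 (limma adjusted p = 0.00535). Rxra, a retinoid X receptor that pairs with Nr4a proteins, was higher after sleep deprivation than in sleep by 0.57 ± 0.12 log2 in bound arrays (limma adjusted p = 0.00447) and by 0.46 ± 0.12 in unbound arrays (limma adjusted p = 0.024).

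Of 20 tested genes of the signalling chain that leads to the members' promoters, 2 were higher after sleep deprivation than in sleep in bound arrays and 3 in unbound arrays, and 0 were lower in either. Of all tested probe sets, 8.05% and 4.72% were called higher there. Their medians were -0.02 log2 in bound and 0.09 in unbound arrays, against 0.00 and 0.02 over all. The bound genes were Creb1 and Mrtfb, and the unbound genes Srf, Creb1 and Map2k1. Creb1, the cyclic AMP response factor, was higher in bound arrays by 0.77 ± 0.11 log2 after sleep deprivation (limma adjusted p = 0.000118) and by 0.51 ± 0.11 in waking (limma adjusted p = 0.00646). Its rise after sleep deprivation was 0.48 ± 0.11 log2 larger in bound than in unbound arrays (limma adjusted p = 0.0131). Srf, which binds CArG boxes, was higher after sleep deprivation in unbound arrays by 0.43 ± 0.12 log2 (limma adjusted p = 0.0282). After quantile normalization within the fraction, an alternative chosen for the lists after the data were seen, the unbound calls of Creb1 (0.24 log2, limma adjusted p = 0.0682) and Map2k1 (0.13, limma adjusted p = 0.09) were lost, and 1 gene was higher and 2 lower.

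Among 35 other activity-induced genes tested, 16 were higher and 2 lower in bound arrays after sleep deprivation than in sleep, with a median of 0.52 log2, where 8.05% and 6.67% of all tested probe sets were called higher and lower with a median of 0.00. Fos, a partner in the AP-1 factor, was higher by 2.57 ± 0.27 log2 (limma adjusted p = 4.69e-06) and Fosl2 by 1.68 ± 0.15 (limma adjusted p = 1.09e-06). The lower ones were Jun at -0.53 ± 0.13 and Jund at -0.18 ± 0.05, picked out here after their values were seen, as were Klf4 and Klf6 below. In bound waking arrays 7 were higher and 1 lower, Klf4 at -0.92 ± 0.23, with a median of 0.29, against 5.08%, 4.83% and -0.01 over all. In unbound arrays 19 were higher and 1 lower after sleep deprivation, and 12 higher and 1 lower in waking, with medians of 0.70 and 0.50. Over all tested probe sets the unbound shares were 4.72% and 3.14% with a median of 0.02 for sleep deprivation, and 1.79% and 6.16% with a median of -0.09 for waking. The lower genes were Klf6 at -0.26 ± 0.08 and, in waking, Nptx2 at -1.14 ± 0.13.

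Known targets of the members were counted in the same way. These counts are small and were not tested against the shares over all tested probe sets. Nab1, Nab2, Arc, Syn1, Mag and Mbp stand on more than 1 list, and Arc was already counted among the other activity-induced genes. Of 7 neuronal Egr targets tested, 1 was higher and 1 lower in bound arrays after sleep deprivation than in sleep, the second being Cdk5r1 at -0.36 ± 0.11 log2, where 8.05% and 6.67% of all tested probe sets were called higher and lower. In bound waking 2 of the 7 were higher than in sleep, Arc by 0.57 ± 0.13 log2 and Nab2, and 0 lower, against 5.08% and 4.83% over all. The higher one after sleep deprivation was Arc, a synaptic protein gene that Egr1 and Egr3 can activate, which was higher by 0.53 ± 0.13 log2 in bound and 2.35 ± 0.17 in unbound arrays (limma adjusted p = 0.0111 and 7.31e-08). For Arc the response was smaller in bound than in unbound arrays, by -1.82 ± 0.21 log2 for sleep deprivation (limma adjusted p = 6.37e-05), the opposite sign to Egr1. Of 10 Egr2 partners and myelin targets known from Schwann cells, 1 was higher and 1 lower in bound arrays after sleep deprivation (Mbp at 0.11 ± 0.03 log2 and the connexin Gjb1 at -0.54 ± 0.16). After quantile normalization within the fraction Mbp was at 0.05 and not called (limma adjusted p = 0.253). In bound waking arrays 1 was higher, Nab2, and 2 were lower, Mag at -0.27 ± 0.05 log2 and Pmp22 at -0.62 ± 0.14. None of 7 dopamine neuron targets of Nr4a2 was called against sleep in either fraction, in limma, and 3 were higher after sleep deprivation than in waking in unbound arrays: Th by 0.64 ± 0.20 log2, Slc18a2 by 0.77 ± 0.24 and Ddc by 0.45 ± 0.13. In that comparison 8.83% of all tested probe sets were called higher, and their median was 0.11 log2. After quantile normalization within the fraction none of the 3 was called, with Th at 0.52 log2 (limma adjusted p = 0.145), Slc18a2 at 0.65 (0.124) and Ddc at 0.33 (0.165).

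The genes most like Egr1, Egr2 and Nr4a1 were ranked by Pearson r over the 18 arrays of a fraction, among 13923 genes. In bound arrays Fos led for Egr1, with r = 0.936 (0.51 for deviations within states), followed by Inpp5d, Arglu1, Zfp60, Hsph1 and Ahsa2. In unbound arrays Dusp6, a MAP kinase phosphatase, and Arc led for Egr1, with r = 0.936 and 0.934. For Egr2 1427683_at the leading gene was Slc36a3 in bound arrays, with r = 0.944, and Fos in unbound arrays, with r = 0.945 (0.69 within states). Nr4a1 was followed most closely by Rcan2 (r = 0.964) and the lipid droplet protein gene Plin4 (r = 0.948) in bound arrays, and by the synaptic scaffold gene Homer1 (r = 0.935) and 4833428L15Rik (r = 0.935) in unbound arrays. In bound arrays Plin4 averaged 10.1 log2 after sleep deprivation, 9.39 in waking and 5.81 in sleep. Slc36a3 averaged 5.08, 5.06 and 4.42 log2 in the same bound groups, near or below the median of the genes not expected in brain (5.07 log2). In unbound arrays 4833428L15Rik averaged 5.19, 4.76 and 4.42 log2, below their unbound median of 5.48 log2. A signal above background was thus not shown for either gene. These correlations rest largely on the state means, which the 18 arrays share.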

How the data were processed

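The values were deposited by the authors as log2 signals, summarised with RMA according to the submitters' notes on processing (its version is not stated), for 36 arrays of 18 animals, and were used unchanged. Of 45101 probe sets, 64 array controls were set aside. The platform annotation named 1 gene for 34945 of the others, several for 932 and none for 9160. Testing required a mean at or above the 40th percentile in the bound arrays (4.47 log2) or in the unbound arrays (5.18 log2), and 28786 remained.

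State differences were tested with limma 3.58.1 in R 4.3.3 (intensity trend, with the package data.table, version 1.17.8) on the 18 arrays of a fraction. For the fractions, the bound minus unbound value of each animal was tested, since the design text says that each animal gave both arrays. Within an animal, deviations from the group means correlated by 0.01 to 0.09 over all tested probe sets. Adjusted p-values are Benjamini-Hochberg over all tested probe sets, with a threshold of 0.05. The fits were tested on simulated data. Labels name separate animals as replicates. The number of arrays limits the precision.

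The members and lists were chosen with earlier results of these data known. All member probe sets are named, and of each list up to 4 genes with the smallest p in a comparison (1 probe set a gene, the brightest), with exceptions stated. For Egr1, Egr2 and Nr4a1 the 6 genes most alike were ranked. The lists were co-regulators (5 of 5 genes tested), upstream signalling (20 of 27), other activity-induced genes (35 of 38), neuronal Egr targets (7 of 8), Schwann cell Egr2 partners (10 of 13), Nr4a2 dopamine neuron targets (7 of 7), and cell type markers. Promoter windows came from RefSeq, GRCm38.p6. Alternatives were no filter, quantile normalization over all or within a fraction, dim values raised to the filter level, no trend, 1 value per gene, only the compared groups, a replicate block, and leaving out the 3 animals set apart or any 1 animal. Figures were drawn with matplotlib 3.10.9 (pandas 2.3.3, numpy 2.4.6, Python 3.11.15).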

Additional observations from a re-analysis of the deposited data

Results flagged for a closer look

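Single animals stood apart in 4 of the 96 groups of 6 that were checked by Dixon's criterion, which flags about 1 in 20 groups by chance. Egr3 1421486_at was at 7.78 log2 in unbound waking replicate 3, against 7.36 to 7.51 in the other waking animals. Nr4a2 1455034_at was at 9.98 log2 in unbound sleep deprived replicate 10, against 9.58 to 9.71. Nr4a3 1421080_at was at 7.59 log2 in unbound sleep replicate 3, against 8.19 to 8.38. Nr4a3 1438796_at was at 6.87 log2 in bound sleep deprived replicate 10, against 7.69 to 8.12, and without that animal the bound difference between sleep deprivation and sleep was 0.62 log2 and was called (limma adjusted p = 0.0176).

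The response of Egr1 differed between the fractions in limma's test of the difference itself: by 0.349 log2 for sleep deprivation against sleep and by 0.396 log2 for waking against sleep, larger in bound than in unbound arrays. The 2 comparisons share their sleep arrays. The calls were 1 of 16 in each, where 3.23% and 4.38% of all tested probe sets were called higher. Both were lost under quantile normalization over all arrays, with no intensity trend, without the animal as a replicate block and without the 3 animals with low Y-linked signal. Leaving out single animals removed the first in 9 of 18 fits and the second in 2 of 18.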

How the results depend on the processing

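Of the Egr and Nr4a members, Egr1, Egr2 and Nr4a1 against sleep kept direction and call in both fractions and both awake states under every alternative run. Gene counts here take the brightest probe set of each gene, which for Nr4a3 is not the dim 1421079_at, so bound sleep deprivation and bound waking against sleep each have 4 genes and 6 probe sets. The other changes follow, and the cause was not tested where none is named. Bound sleep deprivation against waking gave 0 members instead of 1 (Egr3) with the mean of a gene's probe sets and 0 without the 3 animals set apart, which leaves fewer samples, and 0 to 1 when single animals were left out. Unbound sleep deprivation against waking gave 2 probe sets instead of 4 under both quantile normalizations. The fraction difference of Egr1 for sleep deprivation gave 0 instead of 1 under quantile normalization over all arrays and without the 3 animals, 0 genes with no intensity trend (where Egr3 1421486_at passed instead, at -0.50 log2, limma adjusted p = 0.0407), and 0 to 1 without single animals, while dim values raised to the filter level gave 2 probe sets. For waking it gave 0 under both quantile normalizations, with no intensity trend and without the 3 animals, and 0 to 2 without single animals. Leaving out single animals gave 4 to 5 genes (6 to 8 probe sets) in bound sleep deprivation against sleep, 4 to 4 (5 to 7) in bound waking, 6 to 6 (8 to 12) and 3 to 3 (4 to 5) in the same unbound comparisons, 3 to 4 (3 to 5) in unbound sleep deprivation against waking, and 7 (15) in bound against unbound. Without the animal as a replicate block, the fraction difference of Egr1 was 0.35 log2 (limma adjusted p = 0.223) for sleep deprivation and 0.40 (adjusted p = 0.157) for waking, so 0 genes were called by the brightest probe set, while Egr3 1421486_at passed for sleep deprivation (-0.50, adjusted p = 0.0308). Waking and sleeping animals share only a number; with that number as a replicate block, waking against sleep gave 4 member genes in bound and 3 in unbound arrays, as without it, and over all tested probe sets 1067 calls instead of 2287 in unbound arrays. Same-numbered animals correlated by 0.00 to 0.09 in bound and 0.01 to 0.08 in unbound arrays, and 4 and 3 of 6 correlated best with their own number. In unbound sleep deprivation against sleep, Egr3 1421486_at, Nr4a2 1450749_a_at and Nr4a3 1421080_at were called with no filter (limma adjusted p = 0.032, 0.0476 and 0.0326), and the last 2 with only the groups compared (0.028 and 0.04). Nr4a3 1421080_at was called in bound waking with no filter (0.0415) and under quantile normalization over all arrays (0.0499). With only the groups compared, Nr4a2 1450749_a_at was not called in unbound sleep deprivation against waking (0.0583), and with no intensity trend Nr4a2 1433422_at was called between fractions (-0.13 log2, adjusted p = 0.0388). Signs reversed under quantile normalization over all arrays for bound against unbound in Egr4 (0.34 log2), Nr4a2 1433422_at (0.44) and Nr4a2 1433423_at (0.39).

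Counts over all tested probe sets moved by more than 1.5 times with no filter: 9629 instead of 4236, 8085 instead of 2853 and 6768 instead of 1694 in the bound comparisons (sleep deprivation and waking against sleep, then sleep deprivation against waking), 6899 instead of 2264, 6903 instead of 2287 and 7466 instead of 3036 in the unbound ones, 37154 instead of 23968 between fractions, and 6569 instead of 1834, 6293 instead of 1755 and 5796 instead of 1454 for the fraction differences. Without the 3 animals, in the comparisons with waking, they were 1606 and 660 in bound arrays, 1249 and 1567 in unbound arrays, and 882 and 523 for the fraction differences. With 1 value per gene, fewer features were tested, and counts ran from 595 to 11902. Quantile normalization within a fraction changed the split of calls in unbound arrays, from 2542 higher and 494 lower to 679 and 710 for sleep deprivation against waking, and from 515 and 1772 to 813 and 817 for waking against sleep. Over all arrays it gave 12399 higher and 11226 lower instead of 6857 and 17111 between fractions. For the fraction differences it gave 771 higher and 673 lower instead of 1261 and 494 (waking against sleep), and 551 and 535 instead of 393 and 1061 (sleep deprivation against waking). The dim signals of Egr2 and Nr4a3 1421079_at in bound sleep arrays limit the size of their differences. The Nr4a2 dopamine neuron targets called in unbound sleep deprivation against waking were 0 instead of 3 under quantile normalization within a fraction, an alternative added after the data were seen.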
